A study of Mus musculus with 8 samples.

Results

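The genes described here are 7 genes of vitamin A uptake and retinoid metabolism, Scarb1, Bco1, Rbp2, Lrat, Rdh7, Aldh1a1 and Isx, chosen by name. Each matched 1 of the 37620 genes in the expression tables, and all 7 passed the filter on low counts. Intestinal absorptive cells take up provitamin A carotenoids and retinol from the gut lumen. Carotenoids are cleaved to retinaldehyde, which is reduced to retinol or oxidised to retinoic acid, and retinol is bound in the cytosol, esterified and exported in chylomicrons. In mice, retinoic acid made in the epithelium induces the homeobox factor Isx, which represses the genes of carotenoid uptake and cleavage.

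RNA was sequenced from 8 flow-sorted preparations of epithelial cells of the mouse small intestine. CD24Neg cells, which lack the surface glycoprotein CD24, made up 4 of the libraries (replicates 2, 4, 6 and 8), and CD24Mid cells, with intermediate CD24, made up the other 4 (replicates 1, 3, 5 and 7). Cells positive for the leukocyte antigen CD45 or binding the Ulex lectin had been depleted from both groups, the series calls its replicates biological, and the sources used here do not state the strain, age or intestinal segment. Each library is a bulk sample of a sorted gate, so that fewer cells of a type and less RNA per cell cannot be told apart.

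Gene-unique totals were 11340782 to 18928233 reads in CD24Neg and 15473071 to 17537818 in CD24Mid. Cd24a, the gene of the sorting marker, was 6.81-fold lower in CD24Neg, the epithelial gene Epcam averaged 1378 ± 61.9 CPM in CD24Neg and 1300 ± 124 CPM in CD24Mid (SD, n = 4 each), 11 of 12 enterocyte markers were higher in CD24Neg, and all 8 stem and dividing cell markers were higher in CD24Mid. CPM are reads scaled to a common library size after TMM normalisation, which corrects for a few genes taking much of a library. Reads of mitochondrially encoded genes took 27.7% to 37.0% of CD24Neg totals and 8.03% to 9.17% of CD24Mid totals. Markers of T and NK cells summed to 29.2 to 503 CPM in CD24Neg against 6.09 to 17.0 CPM in CD24Mid, and 6 of 6 were higher in CD24Neg. Goblet cell markers summed to 9441 to 26470 CPM in CD24Neg against 3111 to 4468 CPM in CD24Mid, with 4 of 6 higher in CD24Neg. B and plasma cell markers summed to 23.7 to 54.6 CPM in CD24Neg against 396 to 1014 CPM in CD24Mid, with 4 of 5 tested higher in CD24Mid. Enteroendocrine markers summed to 74.9 to 118 CPM in CD24Neg against 270 to 801 CPM in CD24Mid, with 5 of 7 higher in CD24Mid. The part of these cell populations and of mitochondrial reads in the results below was not tested.

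A promoter window was at hand for 6 of the 7 genes. The 150 bases before the start are shown for the binding protein, the cleavage enzyme, the esterifying enzyme and the regulator, which differ in how far they changed (RefSeq, build GRCm38.p6, 5′ to 3′ on the strand of the gene). Capitals mark AGGTCA or its reverse complement TGACCT, the half-site read by nuclear receptors such as the retinoic acid, retinoid X and HNF4 receptors. The windows are chr9:98490387-98490536 on the plus strand for Rbp2, chr8:117095715-117095864 on the plus strand for Bco1, chr3:82903975-82904124 on the minus strand for Lrat and chr8:74873024-74873173 on the plus strand for Isx.
Rbp2: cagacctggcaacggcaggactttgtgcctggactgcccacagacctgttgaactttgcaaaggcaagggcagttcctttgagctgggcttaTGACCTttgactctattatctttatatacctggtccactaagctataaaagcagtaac
Bco1: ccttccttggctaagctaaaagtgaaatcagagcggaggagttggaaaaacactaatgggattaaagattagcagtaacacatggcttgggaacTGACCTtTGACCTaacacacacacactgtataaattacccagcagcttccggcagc
Lrat: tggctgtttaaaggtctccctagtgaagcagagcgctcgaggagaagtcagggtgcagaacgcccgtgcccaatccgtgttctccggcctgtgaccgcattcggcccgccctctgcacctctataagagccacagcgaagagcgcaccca
Isx: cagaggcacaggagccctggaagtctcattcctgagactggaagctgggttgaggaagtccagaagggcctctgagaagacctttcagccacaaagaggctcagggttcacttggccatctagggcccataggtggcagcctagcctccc
The half-site stood once in the Rbp2 window, beginning 58 bases before the start, and in 2 copies with 1 base between them in the Bco1 window, the first beginning 56 bases before the start. In both windows a copy was part of the longer run CAAAGGTCA, read on the opposite strand. The half-site was in neither the Lrat nor the Isx window, nor in the 2 windows of Aldh1a1. It was in 1 of 2 windows of Rdh7, without the longer run. Aldh1a1 and Rdh7, whose windows are not shown, were 26.3-fold and 8.47-fold higher in CD24Neg, against 6.61-fold for Bco1. Searched on both strands, AGGTCA was in 2820 of 32851 promoter windows of this length (8.58%) and CAAAGGTCA, which contains it, in 80 (0.244%). These motifs were chosen after the windows had been read, and a match in letters is not a binding site.

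The comparison of CD24Neg with CD24Mid asked how the vitamin A genes differ between these fractions. By edgeR, 6 of the 7 were higher in CD24Neg at an adjusted p under 0.05 and 0 were higher in CD24Mid, with Lrat not called. Over all 12840 genes tested, 69.8% were called, 34.3% higher in CD24Neg and 35.5% higher in CD24Mid. The median log2 fold change of the 7 was 2.72, against -0.015 over all genes tested. The genes differed in the size of the change. Rbp2, Aldh1a1, Rdh7 and Bco1 were called with changes of more than 2-fold, as were 18.3% of all genes tested, while Scarb1 and Isx differed by less than that. Ranked by log2 fold change toward CD24Neg, Rbp2 was at 122, Aldh1a1 at 152, Rdh7 at 471 and Bco1 at 608 of 12840, whereas Scarb1 was at 3234, Lrat at 4080 and Isx at 5078. The calls of Scarb1 and Isx, and the direction of Scarb1, Isx and Lrat, depended on the scaling and are given with their values below.

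**Figure D1:**
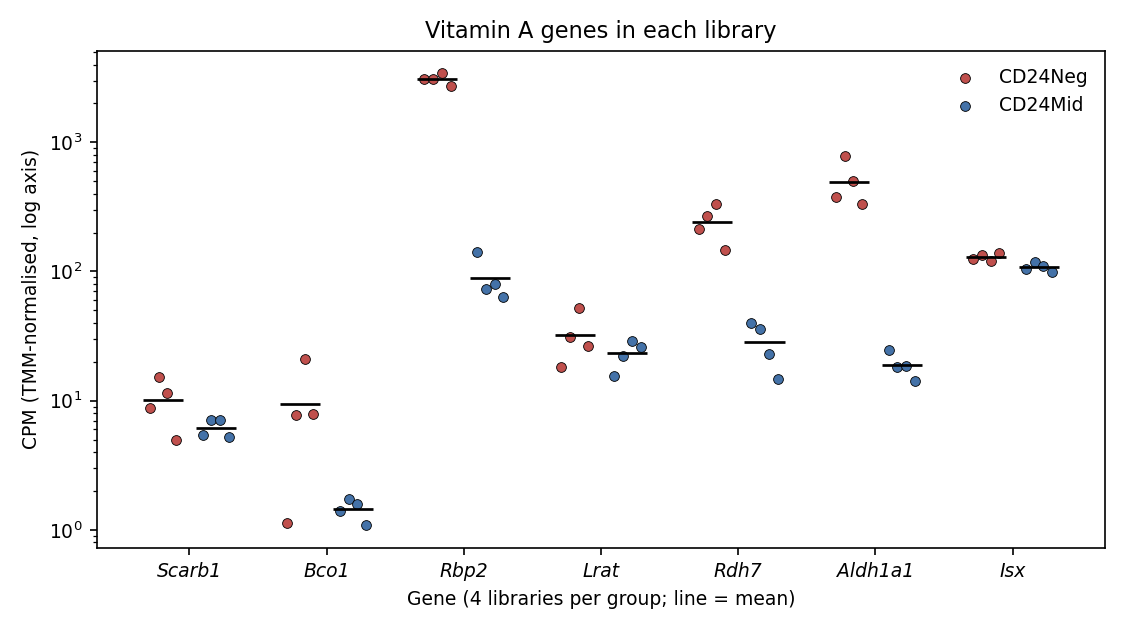
Expression of the 7 vitamin A genes in each library, in TMM-normalised CPM on a log axis, with CD24Neg libraries left of CD24Mid libraries and a line at the mean of each group (n = 4 each). The groups are wide apart for Rbp2, Aldh1a1 and Rdh7, close but separate for Isx, and overlap for Bco1, Scarb1 and Lrat.

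Scarb1 (ENSMUSG00000037936) encodes scavenger receptor class B type I, which takes up carotenoids and cholesterol at the brush border. It had 8.74, 15.2, 11.5 and 4.97 CPM in CD24Neg replicates 2, 4, 6 and 8, against 5.38, 7.11, 7.03 and 5.27 CPM in CD24Mid replicates 1, 3, 5 and 7. The groups overlapped, since CD24Neg replicate 8 was below all CD24Mid libraries and the other 3 CD24Neg libraries were above them. The means were 10.1 ± 4.32 CPM in CD24Neg and 6.20 ± 1.01 CPM in CD24Mid (SD, n = 4 each), a 1.63-fold difference (log2 fold change 0.71 ± 0.29 SE, edgeR adjusted p = 0.046). This call was lost in 7 of 8 fits that left out 1 library and held only without CD24Neg replicate 8, and with unscaled library totals Scarb1 had a log2 fold change of -0.22 (adjusted p = 0.511).

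Bco1 (ENSMUSG00000031845), the enzyme that splits beta-carotene into retinaldehyde, was the most variable of the 7 in CD24Neg. It had 1.14, 7.75, 20.8 and 7.95 CPM in CD24Neg replicates 2, 4, 6 and 8, from 9, 67, 287 and 72 reads. In CD24Mid replicates 1, 3, 5 and 7 it had 1.41, 1.72, 1.59 and 1.09 CPM, from 29, 37, 38 and 27 reads. CD24Neg replicate 2 lay within the CD24Mid range, and the other 3 CD24Neg libraries were above it. The means were 9.42 ± 8.25 CPM in CD24Neg and 1.45 ± 0.275 CPM in CD24Mid (SD, n = 4 each), a 6.61-fold difference (log2 fold change 2.72 ± 0.61 SE, edgeR adjusted p = 0.0021). Its size rested on single libraries, since leaving out CD24Neg replicate 6 gave a log2 fold change of 1.91 and leaving out CD24Neg replicate 2 gave 3.05, both still called. The sum of T and NK cell markers was 503 CPM in CD24Neg replicate 2, where Bco1 was lowest, and 29.2, 81.8 and 379 CPM in CD24Neg replicates 4, 6 and 8. The 6 ileum markers were all higher in CD24Neg. They summed to 2542, 2771, 2575 and 3109 CPM in CD24Neg replicates 2, 4, 6 and 8, against 207 to 330 CPM in CD24Mid. The markers differed in order between CD24Neg libraries. Fabp6 ranged from 283 CPM in CD24Neg replicate 6 to 1481 CPM in CD24Neg replicate 8. Cubn ranged from 293 CPM in CD24Neg replicate 2 to 922 CPM in CD24Neg replicate 6. The CD24Neg ranges were 3.80 to 13.6 CPM for Slc10a2, 67.2 to 89.2 CPM for Osr2, 132 to 207 CPM for Guca2a and 885 to 1130 CPM for Naaladl1. Of 6 proximal intestine markers tested, 4 were higher in CD24Neg. The proximal list summed to 4235, 4417, 4724 and 3318 CPM in CD24Neg replicates 2, 4, 6 and 8, against 424 to 670 CPM in CD24Mid. The part of T and NK cells or of intestinal segment in the spread of Bco1 was not tested.

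Rbp2 (ENSMUSG00000032454), the cellular retinol-binding protein of the absorptive epithelium, which carries retinol and retinaldehyde in the cytosol, had the largest change of the 7. It had 3063, 3093, 3417 and 2732 CPM in CD24Neg replicates 2, 4, 6 and 8, against 141, 72.7, 79.3 and 63.8 CPM in CD24Mid replicates 1, 3, 5 and 7. All CD24Neg libraries were far above all CD24Mid libraries, and CD24Mid replicate 1 was the highest of its group. The means were 3076 ± 280 CPM in CD24Neg and 89.2 ± 35.1 CPM in CD24Mid (SD, n = 4 each), a 34.5-fold difference (log2 fold change 5.11 ± 0.28 SE, edgeR adjusted p = 1.69e-07). Between CD24Neg libraries the SD was 9.10% of the mean for Rbp2, against 6.52% for Isx and 32.6% to 87.5% for Bco1, Scarb1, Lrat, Rdh7 and Aldh1a1. Between CD24Mid libraries it was 39.4% for Rbp2, against 7.36% for Isx, the lowest of the 7, and 40.6% for Rdh7, the highest.

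Lrat (ENSMUSG00000028003), lecithin retinol acyltransferase, esterifies the retinol that Rbp2 carries. It had 18.2, 31.4, 52.5 and 26.7 CPM in CD24Neg replicates 2, 4, 6 and 8, against 15.6, 22.1, 29.2 and 26.0 CPM in CD24Mid replicates 1, 3, 5 and 7. The groups overlapped over most of their range, with CD24Neg replicate 6 the highest of all. The means were 32.2 ± 14.6 CPM in CD24Neg and 23.2 ± 5.86 CPM in CD24Mid (SD, n = 4 each), and the difference was not called (log2 fold change 0.48 ± 0.29 SE, edgeR adjusted p = 0.158). Lrat was not called on unscaled totals either, where its log2 fold change was -0.46 (adjusted p = 0.192).

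Rdh7 (ENSMUSG00000040134) belongs to the retinol dehydrogenases, short-chain dehydrogenases that interconvert retinol and retinaldehyde. It had 213, 269, 330 and 147 CPM in CD24Neg replicates 2, 4, 6 and 8, against 39.9, 35.7, 23.1 and 14.8 CPM in CD24Mid replicates 1, 3, 5 and 7. The groups did not overlap, and the lowest CD24Neg library was still above the highest CD24Mid library. The means were 240 ± 78.1 CPM in CD24Neg and 28.4 ± 11.5 CPM in CD24Mid (SD, n = 4 each), an 8.47-fold difference (log2 fold change 3.08 ± 0.33 SE, edgeR adjusted p = 1.12e-05). Rdh7 has close paralogs. Its gene-unique reads came to 97.0% of its estimated reads including shared ones, and with the estimated reads the log2 fold change was 3.07.

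Aldh1a1 (ENSMUSG00000053279), a cytosolic dehydrogenase that oxidises retinaldehyde to retinoic acid, had 379, 781, 497 and 330 CPM in CD24Neg replicates 2, 4, 6 and 8. In CD24Mid replicates 1, 3, 5 and 7 it had 24.5, 18.4, 18.5 and 14.3 CPM. All CD24Neg libraries were above all CD24Mid libraries. CD24Neg replicate 4 was the highest of its group for Aldh1a1 and Scarb1, and CD24Neg replicate 6 for Bco1, Rbp2, Lrat and Rdh7. The means were 497 ± 202 CPM in CD24Neg and 18.9 ± 4.21 CPM in CD24Mid (SD, n = 4 each), a 26.3-fold difference (log2 fold change 4.71 ± 0.30 SE, edgeR adjusted p = 3.30e-07).

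Isx (ENSMUSG00000031621), the intestine-specific homeobox repressor, had 126, 135, 121 and 139 CPM in CD24Neg replicates 2, 4, 6 and 8, against 105, 119, 110 and 99.9 CPM in CD24Mid replicates 1, 3, 5 and 7. The groups did not overlap, but the lowest CD24Neg library and the highest CD24Mid library were close. The means were 130 ± 8.49 CPM in CD24Neg and 108 ± 7.98 CPM in CD24Mid (SD, n = 4 each), a 1.20-fold difference (log2 fold change 0.26 ± 0.10 SE, edgeR adjusted p = 0.033). Between libraries the SD was 6.52% of the mean in CD24Neg and 7.36% in CD24Mid. Its direction followed the scaling. With upper-quartile scaling the log2 fold change was 0.039 (adjusted p = 0.738), and on unscaled totals it was -0.68 and was called higher in CD24Mid (adjusted p = 8.09e-05). The call was also lost in 7 of 8 fits that left out 1 library and held only without CD24Mid replicate 3. Counting genes whose groups do not overlap with CD24Neg higher, Isx stood beside Rbp2, Aldh1a1 and Rdh7, or 4 of 7, and 0 of 7 were separate with CD24Mid higher. Over all genes tested the groups did not overlap for 64.4%, with CD24Neg higher for 31.4% and CD24Mid higher for 33%.

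**Figure D2:**
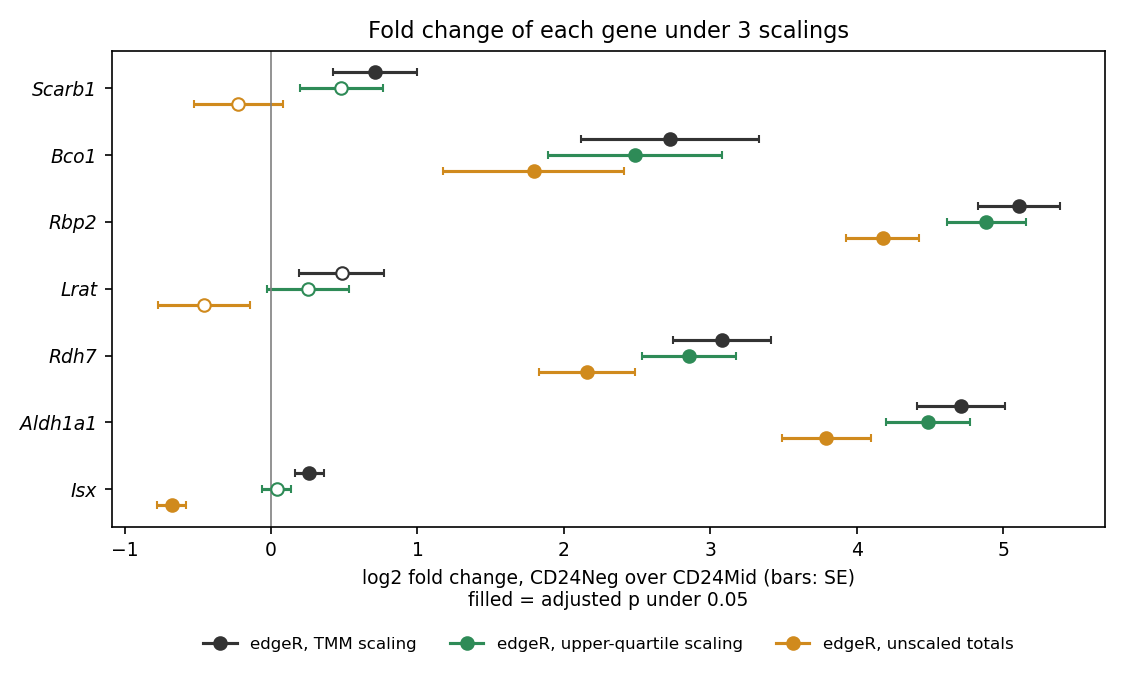
The log2 fold change of each gene, CD24Neg over CD24Mid, with its standard error, from edgeR under TMM scaling, upper-quartile scaling and unscaled totals, and filled points for an adjusted p under 0.05. Bco1, Rbp2, Rdh7 and Aldh1a1 lie well above 0 under all 3 scalings, and Scarb1, Lrat and Isx cross 0 on unscaled totals.

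The choice of scaling shifted all genes together. Over all genes tested the median log2 fold change was -0.015 with TMM and became -0.24 under upper-quartile scaling and -0.96 when totals were left unscaled. The changes of Scarb1, Lrat and Isx were smaller than the shift on unscaled totals, and those of Rbp2, Aldh1a1, Rdh7 and Bco1 exceeded it. Scarb1, Lrat and Isx were on the CD24Neg side of that median. A shift of all genes together does not move a gene across the median. Their side under each of the 3 scalings therefore does not settle their direction.

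Since the ratio of 2 genes within a library does not depend on scaling, the 21 pairs of the 7 genes were compared by their log2 ratio of reads, with an exact two-sided permutation test over the 8 libraries. Of the 21 pairs, 13 differed between the groups at an adjusted p of 0.0462, each with an exact p of 0.0286, the smallest that 4 against 4 libraries allow. Rbp2 and Aldh1a1 changed more than Rdh7, by 2.06 and 1.54 on the log2 scale (exact adjusted p = 0.0462 each), and all 3 changed more than Scarb1, Lrat and Isx. The log2 ratio of Rbp2 to Isx was 4.56 ± 0.22 in CD24Neg and -0.35 ± 0.53 in CD24Mid (SD, n = 4 each), a difference of 4.91 (exact adjusted p = 0.0462). That of Rbp2 to Lrat was 6.68 ± 0.56 in CD24Neg and 1.91 ± 0.86 in CD24Mid (SD, n = 4 each), a difference of 4.77 (exact adjusted p = 0.0462). A difference in change between Rbp2 and Aldh1a1 was not detected (difference 0.52, exact adjusted p = 0.16). Among Scarb1, Lrat and Isx no pair passed, and of the 6 pairs with Bco1 those with Rbp2 and Aldh1a1 passed. Leaving out any 1 CD24Mid library left 0 pairs under 0.05, with adjusted p of 0.0545 or more. With so few libraries the exact p has a lowest value. Whether any pair passes then turns on how many pairs reach it, here as with all 8 libraries. This loss therefore cannot show that the ratios depend on 1 library.

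Levels were compared between genes only per length, as CPM per kilobase of effective length. In CD24Neg the order ran from Rbp2 at 6885 ± 676, through Aldh1a1 at 303 ± 120, Rdh7 at 183 ± 60.2 and Isx at 75.3 ± 4.83, to Lrat at 7.19 ± 3.30, Bco1 at 5.01 ± 4.43 and Scarb1 at 4.93 ± 2.08 (SD, n = 4 each). The ranges of Aldh1a1 and Rdh7 overlapped between CD24Neg libraries, but within each CD24Neg library Aldh1a1 was the higher. Those of Lrat, Bco1 and Scarb1 overlapped too. Lrat was above Bco1 within each CD24Neg library, while the place of Scarb1 differed between libraries. In CD24Mid the order was Rbp2 at 201 ± 80.6, Isx at 64.0 ± 4.40, Rdh7 at 21.7 ± 8.87, Aldh1a1 at 11.6 ± 2.63, Lrat at 5.20 ± 1.3, Scarb1 at 3.09 ± 0.555 and Bco1 at 0.777 ± 0.150 (SD, n = 4 each). Rbp2 was thus the most abundant of the 7 transcripts per length in both groups. Isx came next after it in CD24Mid but behind Aldh1a1 and Rdh7 in CD24Neg. In CD24Mid the ranges of Aldh1a1 and Rdh7 overlapped, as did those of Lrat and Scarb1. Within each CD24Mid library, however, Rdh7 was above Aldh1a1 and Lrat was above Scarb1.

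The genes most like each of the 7 over the 8 libraries were found by the root mean square difference of log2 CPM, centred on each gene's mean, among 7139 candidates. Rbp2 was closest to Cyp2d26 (0.205) and Plekhg6 (0.217), Aldh1a1 to the folate transporter gene Slc46a1 (0.202) and the fatty acid binding protein gene Fabp2 (0.260), and Rdh7 to the monoamine oxidase gene Maob (0.201) and Ms4a10 (0.218). Isx had the closest matches, Fam50a (0.0637) and the autophagy kinase gene Ulk1 (0.0654). Lrat was closest to Pik3c2a (0.184) and Odr4 (0.194), and Scarb1 to Retreg1 (0.207) and Mmp15 (0.258). Bco1 had the most distant matches of the 7, the nucleoside transporter gene Slc28a2 (0.663) and Clca4b (0.695). All candidates had a mean log2 CPM of 4 or more, and Bco1 lay below that level, so genes as low as Bco1 were not compared. This measure also grows with a gene's own spread, and the SD of Bco1 in CD24Neg was 87.5% of its mean. The part of level and spread in its distance was not tested.

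The other genes of retinoid handling were counted in 9 lists by role, which leave out the 7 genes. Of the 68 genes tested in them, 41 were higher in CD24Neg and 13 in CD24Mid, where 34.3% and 35.5% of all genes tested were. Under upper-quartile scaling the counts became 38 and 17, where 27.3% and 43.6% of all genes were called higher in CD24Neg and in CD24Mid. When totals were left unscaled they became 26 and 27, where 12.9% and 69.8% were. Of 9 tested genes of carotenoid and retinyl ester uptake, 6 were higher in CD24Neg, 1 in CD24Mid and 2 were not called (median log2 fold change 2.53). The brush border phospholipase gene Plb1, which also hydrolyses retinyl esters, averaged 229 ± 79.7 CPM in CD24Neg and 2.27 ± 0.964 CPM in CD24Mid (SD, n = 4 each; log2 fold change 6.66 ± 0.37 SE, edgeR adjusted p = 1.70e-07). Cd36, a scavenger receptor related to Scarb1, averaged 89.6 ± 59.1 CPM in CD24Neg and 2.69 ± 0.775 CPM in CD24Mid (log2 fold change 5.07), and the cholesterol transporter gene Npc1l1 averaged 1322 ± 246 CPM in CD24Neg and 147 ± 38.9 CPM in CD24Mid (log2 fold change 3.17). Beside these 3 genes Scarb1 had a log2 fold change of 0.71, a difference that was not tested. The gene higher in CD24Mid was Stra6l, a receptor for retinol-binding protein, with 6.33, 7.87, 3.85 and 6.96 CPM in CD24Neg libraries against 43.2, 45.5, 42.0 and 39.8 CPM in CD24Mid libraries (log2 fold change -2.79 ± 0.19 SE, edgeR adjusted p = 4.31e-07).

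**Figure D3:**
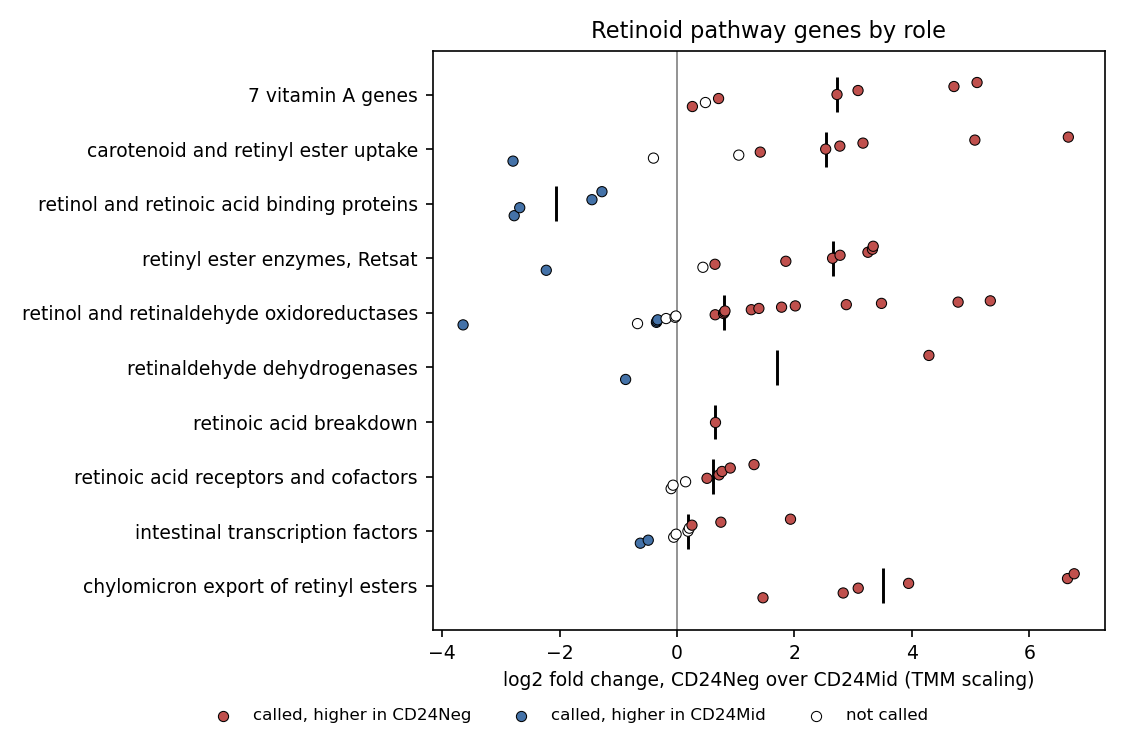
Log2 fold changes, CD24Neg over CD24Mid, of every tested gene in the 9 retinoid lists, with the 7 vitamin A genes on the top row and a bar at each list's median. Red points were called higher in CD24Neg, blue points higher in CD24Mid and open points were not called; the chylomicron list lies wholly to the right, and the binding proteins lie wholly to the left.

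Rbp2 was higher in CD24Neg while the other binding proteins tested were higher in CD24Mid. Of 4 others tested, 0 were higher in CD24Neg and 4 in CD24Mid (median log2 fold change -2.06). Among all genes tested 34.3% were higher in CD24Neg and 35.5% in CD24Mid. The counts were the same on unscaled totals, where the shares of all genes tested were 12.9% and 69.8%. Rbp4, Ttr and Fabp5 were low, with 38, 51 and 43 reads in CD24Neg and 244, 795 and 632 in CD24Mid. Rbp7 averaged 13.2 ± 4.63 CPM in CD24Neg and 31.6 ± 7.43 CPM in CD24Mid, Rbp4, the plasma carrier of retinol, averaged 1.0 ± 0.557 CPM in CD24Neg and 2.70 ± 1.60 CPM in CD24Mid, and its plasma partner Ttr averaged 1.29 ± 0.448 CPM in CD24Neg and 8.90 ± 4.65 CPM in CD24Mid (SD, n = 4 each). The groups overlapped for Rbp4, and its call was lost without CD24Neg replicate 6 or 8 or CD24Mid replicate 3 or 5. Fabp5, which carries fatty acids and retinoic acid, averaged 1.08 ± 0.0799 CPM in CD24Neg and 7.01 ± 2.96 CPM in CD24Mid (SD, n = 4 each; log2 fold change -2.68). Its gene-unique reads came to 74.3% of its estimated reads including shared ones.

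Lrat was not called, while most other genes of ester enzymes were higher in CD24Neg. Of 9 tested genes of retinyl ester synthesis, hydrolysis and saturation, which leave out Lrat, 7 were higher in CD24Neg, 1 in CD24Mid and 1 was not called (median log2 fold change 2.65). Among all genes tested 34.3% were higher in CD24Neg and 35.5% in CD24Mid. On unscaled totals 6 were higher in CD24Neg and 1 in CD24Mid, where 12.9% and 69.8% of all genes tested were. Dgat2, an acyltransferase that makes triglycerides, averaged 232 ± 38.1 CPM in CD24Neg and 24.4 ± 4.30 CPM in CD24Mid (SD, n = 4 each; log2 fold change 3.25 ± 0.17 SE, edgeR adjusted p = 1.37e-07). Dgat1, whose enzyme can esterify retinol as Lrat does, averaged 1344 ± 46.5 CPM in CD24Neg and 214 ± 60.4 CPM in CD24Mid (SD, n = 4 each; log2 fold change 2.65) and is named for that role, after its value was seen. The hormone-sensitive lipase gene Lipe and the carboxylesterase gene Ces1f, both ester hydrolases, had log2 fold changes of 3.34 and 3.33. Awat2, an acyltransferase, was the gene higher in CD24Mid, with 8 reads in CD24Neg and 89 in CD24Mid.

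Rdh7 was 1 of several oxidoreductases that were higher in CD24Neg. Of 20 others tested, 12 were higher in CD24Neg, 4 in CD24Mid and 4 were not called (median log2 fold change 0.80). Of all genes tested, 34.3% were higher in CD24Neg and 35.5% in CD24Mid. On unscaled totals 6 were higher in CD24Neg and 8 in CD24Mid, where 12.9% and 69.8% of all genes tested were. Akr1b7, an aldo-keto reductase, averaged 143 ± 60.9 CPM in CD24Neg and 3.57 ± 1.45 CPM in CD24Mid (SD, n = 4 each; log2 fold change 5.33). Rdh9, a paralog of Rdh7, had 32.3, 66.1, 91.6 and 42.3 CPM in CD24Neg libraries against 2.47, 2.74, 1.63 and 1.65 CPM in CD24Mid libraries (log2 fold change 4.79 ± 0.35 SE, edgeR adjusted p = 7.46e-07). CD24Neg replicate 6 was the highest library for Rdh9 as it was for Rdh7. Rdh16, Rdh5 and Dhrs9 were also higher in CD24Neg, with log2 fold changes of 2.01, 1.39 and 3.48, and the call of Rdh5 was lost on unscaled totals (0.46, adjusted p = 0.0777).

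Other retinol dehydrogenases moved little or toward CD24Mid. Rdh1 had 6 reads in CD24Neg, with 0 in CD24Neg replicate 2, and 183 in CD24Mid (log2 fold change -3.64, edgeR adjusted p = 0.000166). Rdh10, the enzyme that oxidises retinol in the embryo, averaged 30.1 ± 5.61 CPM in CD24Neg and 17.3 ± 1.36 CPM in CD24Mid, and Rdh14 averaged 23.9 ± 1.08 CPM in CD24Neg and 13.8 ± 0.565 CPM in CD24Mid (SD, n = 4 each). Their log2 fold changes of 0.81 and 0.79 became -0.13 and -0.15 on unscaled totals. Rdh11 (log2 fold change -0.34), Dhrs7 (-0.35) and Adh5 (-0.33) were called higher in CD24Mid by small margins, that of Dhrs7 not without CD24Mid replicate 1 or 3. Rdh12 and Rdh13 were not called (log2 fold changes -0.67 and -0.19), but on unscaled totals both were called higher in CD24Mid (-1.59 and -1.13), and Rdh13 was so under upper-quartile scaling too (-0.41, adjusted p = 0.0152).

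Aldh1a1 and its close paralog Aldh1a7 were both higher in CD24Neg, and Aldh1b1 was higher in CD24Mid. Of the 2 other aldehyde dehydrogenases tested, Aldh1a7 had 58.0, 99.7, 74.9 and 50.7 CPM in CD24Neg libraries against 4.99, 3.77, 3.47 and 2.33 CPM in CD24Mid libraries (log2 fold change 4.29 ± 0.27 SE, edgeR adjusted p = 3.15e-07). In both genes CD24Neg replicate 4 was highest and CD24Neg replicate 8 lowest. The mitochondrial enzyme gene Aldh1b1 averaged 570 ± 91.1 CPM in CD24Neg and 1046 ± 153 CPM in CD24Mid (SD, n = 4 each; log2 fold change -0.87 ± 0.16 SE, edgeR adjusted p = 0.000528). Aldh1a2 and Aldh1a3, which make retinoic acid in other tissues, had 0 and 10 reads in all CD24Neg libraries together and 1 and 28 in CD24Mid, too few to test.

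**Figure D4:**
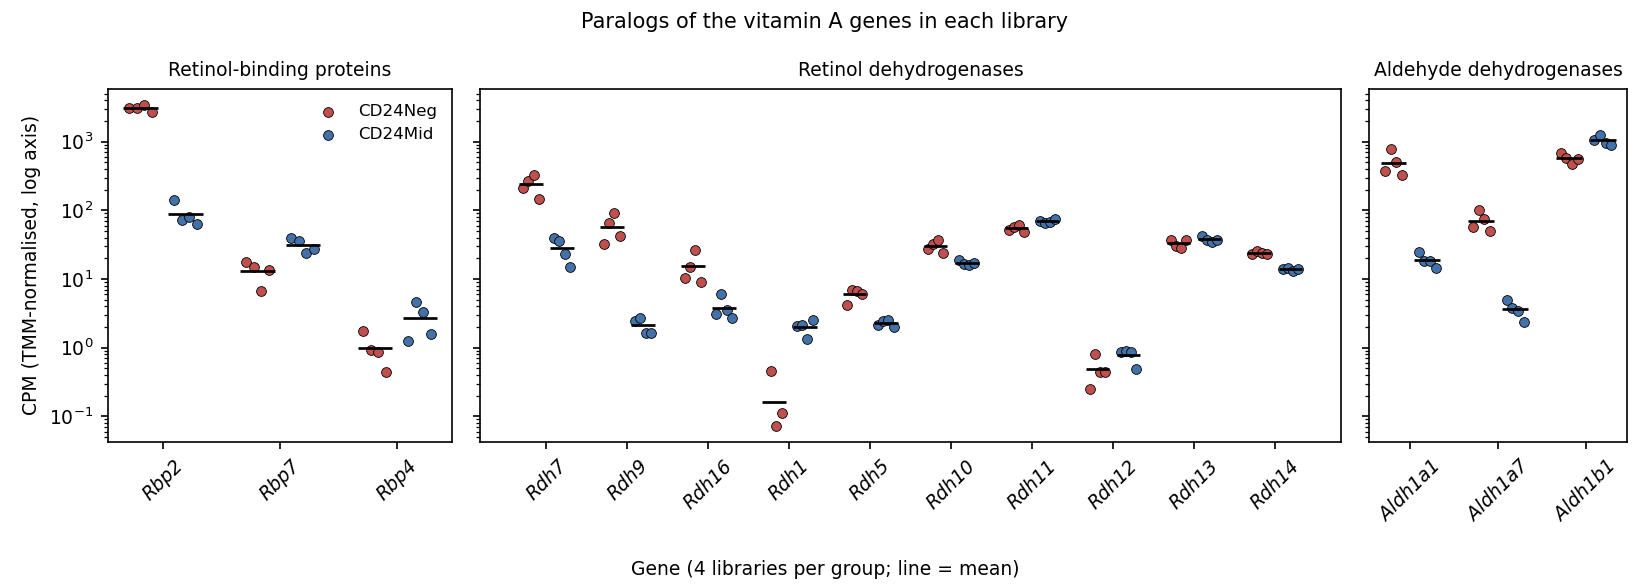
Genes of the retinol-binding, retinol dehydrogenase and aldehyde dehydrogenase families in each library, in TMM-normalised CPM on a log axis, CD24Neg left of CD24Mid, with a line at the mean of each group (n = 4 each). Rbp2, Rdh7, Rdh9, Aldh1a1 and Aldh1a7 are far higher in CD24Neg and Rdh1 and Aldh1b1 are lower; Rdh1 in CD24Neg replicate 2 had 0 reads and is not drawn but counts in the mean.

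Genes of retinoic acid breakdown and reception had small log2 fold changes or too few reads, except Rarg. Cyp26a1, Cyp26b1 and Cyp26c1, which oxidise retinoic acid, had 4, 14 and 3 reads in CD24Neg and 0, 5 and 1 in CD24Mid and were not tested. Cyp2s1 averaged 132 ± 19.4 CPM in CD24Neg and 84.3 ± 17.6 CPM in CD24Mid (SD, n = 4 each; log2 fold change 0.65, edgeR adjusted p = 0.0037, and -0.29 on unscaled totals). Of 8 tested receptors and cofactors, 5 were higher in CD24Neg, 0 in CD24Mid and 3 were not called (median log2 fold change 0.61). Of all genes tested, 34.3% were higher in CD24Neg and 35.5% in CD24Mid. On unscaled totals 0 were higher in CD24Neg and 4 in CD24Mid, where 12.9% and 69.8% of all genes tested were. Rxra, the obligate partner of several nuclear receptors, averaged 190 ± 25.8 CPM in CD24Neg and 102 ± 8.76 CPM in CD24Mid, and the retinoic acid receptor Rara averaged 58.8 ± 4.96 CPM in CD24Neg and 35.8 ± 7.12 CPM in CD24Mid (SD, n = 4 each). Their log2 fold changes of 0.91 and 0.71 became -0.032 and -0.22 on unscaled totals. Rarg was low and averaged 2.78 ± 1.04 CPM in CD24Neg and 1.10 ± 0.190 CPM in CD24Mid (SD, n = 4 each; log2 fold change 1.31), and its call was lost on unscaled totals (0.37, adjusted p = 0.273). The corepressor gene Ncor1 was higher in CD24Neg (log2 fold change 0.77, but -0.18 on unscaled totals). So was the fatty acid receptor gene Ppard, which averaged 250 ± 34.6 CPM in CD24Neg and 175 ± 30.8 CPM in CD24Mid (SD, n = 4 each; log2 fold change 0.51). Ppard lost its call under upper-quartile scaling (0.29) and was called higher in CD24Mid on unscaled totals (-0.43).

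Intestinal transcription factors, some of which act on Isx and the uptake genes, were mixed. Of 9 tested, 3 were higher in CD24Neg, 2 in CD24Mid and 4 were not called (median log2 fold change 0.19). Of all genes tested, 34.3% were higher in CD24Neg and 35.5% in CD24Mid. On unscaled totals 1 was higher in CD24Neg and 7 in CD24Mid, where 12.9% and 69.8% of all genes tested were. Hnf4g averaged 595 ± 159 CPM in CD24Neg and 156 ± 37.1 CPM in CD24Mid (SD, n = 4 each; log2 fold change 1.93 ± 0.23 SE, edgeR adjusted p = 2.37e-05). Its paralog Hnf4a averaged 653 ± 22.9 CPM in CD24Neg and 917 ± 23.7 CPM in CD24Mid (SD, n = 4 each; log2 fold change -0.49 ± 0.11 SE, edgeR adjusted p = 0.0020). Cdx1, a caudal homeobox gene, was higher in CD24Mid (log2 fold change -0.62), while Pparg (0.75) and Gata6 (0.25) were higher in CD24Neg but had log2 fold changes of -0.19 and -0.69 on unscaled totals. The call of Gata6 held, among 8 fits that left out 1 library, only without CD24Mid replicate 1.

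All 6 tested genes of chylomicron export, the route by which retinyl esters leave the enterocyte, were higher in CD24Neg (median log2 fold change 3.51), as they were under the other 2 scalings. The share of all genes tested that were higher in CD24Neg was 34.3% with TMM, 27.3% under upper-quartile scaling and 12.9% on unscaled totals. Apoa1, Apoa4 and Apob, the apolipoproteins of chylomicrons, had log2 fold changes of 6.76, 6.65 and 3.94, beside 5.11 for Rbp2.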

How the data were processed

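Total RNA of flow-sorted cells was sequenced with TruSeq libraries, per the labels' protocols. Reads were aligned with Bowtie 0.12.8 against genome build NCBIM37, as the submitters' processing notes list them. The deposited tables are named as output of MMSEQ and hold, for each of 37620 genes, a count of reads unique to that gene, a log estimate that includes shared reads, and an effective length. The deposited estimate was read as a natural log of abundance per kilobase, scaled to mapped fragments, since this gives back the unique counts. The sources used here do not state other upstream settings, so overlapping genes and close paralogs are uncertain. Symbols were matched for 32897 IDs (87.4%, with 99.3% of the counts).

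Between 89.1% and 92.6% of mapped fragments were gene-unique. The robust quasi-likelihood F test of edgeR 4.0.16 (R 4.3.3) was run on these counts after filterByExpr and TMM, with group as the only term, and p-values of the 12840 genes tested were adjusted by Benjamini-Hochberg with a threshold of 0.05. TMM factors were 0.697 to 0.757 in CD24Neg and 1.34 to 1.42 in CD24Mid. Fold changes are CD24Neg over CD24Mid, and the standard error is the log2 fold change divided by the root of F. Ratios of 2 genes used a pseudocount of 0.5 reads. DESeq2 1.42.0, limma 3.58.1 and other scalings, filters and counts were alternatives. The chi-square between replicate libraries, divided by its degrees of freedom, was never below 10.8, so each was counted singly. The scripts were tested on simulated data.

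The 7 genes, the lists and the tests were chosen with earlier results of these data known. Named beside the 7 are all called genes of a list with 5 or fewer, otherwise the 3 with the largest changes each way whose mean log2 CPM was 0 or more, and measured Rbp, Rdh, Aldh1a and Rar genes. The 2 most like genes of each were taken among tested genes whose mean log2 CPM was 4 or more. No genome positions of the deposited build were used, and a few genes of these lists are not reported here.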

Additional observations from a re-analysis of the deposited data

Results flagged for a closer look

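In 3 of 94 groups of 4 libraries (the 7 genes and the genes named beside them, in each group), 1 library stood apart from the other 3 by more than Dixon's 95% limit for the gap over the range. Chance alone flags about 1 in 20 groups, and none of the 3 was 1 of the 7 vitamin A genes. In CD24Mid replicate 1, Lipe was high at 22.2 CPM, where the other CD24Mid libraries had 13.0 to 13.4 CPM. In CD24Mid replicate 7, Hnf4a was low at 882 CPM, where the others had 927 to 932 CPM, and Rdh12 was low at 0.483 CPM, where the others had 0.873 to 0.883 CPM.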

How the results depend on the processing

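Rbp2, Aldh1a1 and Rdh7 kept their direction and call under every alternative that was run, and Bco1 in all but limma on the deposited estimates (log2 fold change 1.17, adjusted p = 0.161). DESeq2 and a filter of at least 10 reads in every library of a group called the same number of the 7 genes, 6. Lrat, Scarb1 and Isx reversed on unscaled totals, with log2 fold changes of -0.46, -0.22 and -0.68, and with limma on the estimates, which are not corrected for composition, with -0.51, -0.32 and -0.67. With TMM factors applied to the estimates, an alternative chosen after seeing the data, Scarb1 was at 0.62 (adjusted p = 0.0984). Scarb1 lost its call with upper-quartile scaling (0.48), without a filter on low counts (0.61), with estimated counts (0.70) and without mitochondrial genes (0.68), and Isx with upper-quartile scaling (0.039), without a filter (0.16) and without mitochondrial genes (0.23). The number of the 7 called higher in CD24Neg was 4 with upper-quartile scaling, on unscaled totals and without a filter, 5 with estimated counts, and 3 with limma; 1 (Isx) was higher in CD24Mid on unscaled totals and with limma. With each library left out in turn it was 4 to 5, the log2 fold changes of Scarb1 ran from 0.40 to 0.89 and those of Isx from 0.19 to 0.30, and Bco1 ran from 1.91 to 3.05. The pairs of the 7 that differed in ratio numbered 0 to 15. The retinoid genes called were 26 higher in CD24Neg and 27 in CD24Mid on unscaled totals, and of all calls TMM put 49.2% higher in CD24Neg, upper-quartile scaling 38.6% and unscaled totals 15.6%. On unscaled totals and with limma on the estimates, the log2 fold changes reversed to -0.13 and -0.14 for Rdh10, -0.15 and -0.13 for Rdh14, -0.29 and -0.27 for Cyp2s1, -0.032 and -0.029 for Rxra, -0.18 and -0.14 for Ncor1, -0.22 and -0.29 for Rara, -0.19 and -0.22 for Pparg, -0.43 and -0.47 for Ppard, and -0.69 and -0.67 for Gata6. The small differences in change of Lrat and Scarb1 (-0.20) and of Lrat and Isx (0.14) ran from -0.45 to 0.0068 and from -0.16 to 0.37 with single libraries left out, the first reversing to 0.0034 without CD24Neg replicate 2 and 0.0068 without CD24Neg replicate 4, the second to -0.16 without CD24Neg replicate 6 and -0.022 without CD24Mid replicate 1. The cause of these changes was not tested. No paired analysis was possible because the groups share no replicate number and no label ties a library of one group to a library of the other. Of the 7 genes Bco1 had the fewest reads in a library, 9, and 3 reads were 0.121 to 0.380 CPM.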
